A study of Rattus norvegicus with 12 samples.

Results

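Phox2a, Hand1, Hand2, Gata2, Gata3, Insm1 and Isl1 encode transcription factors of the sympathoadrenal lineage, the neural crest derivatives that become sympathetic neurons and chromaffin cells. They were taken from the arrays by gene name: every probe, control spots excepted, whose gene name was one of these 7 symbols was included. This gave 9 probes of 41012, with 1 probe each for 5 of the genes and 2 probes each for Hand2 and Gata3. PC12 cells, a tumour line from a rat adrenal pheochromocytoma, were given the neuropeptide PACAP38 at 1e-07 M, and RNA was taken after 5, 10, 15, 30, 60 or 120 min together with control RNA of the same time. For each time, each RNA was a pool of n = 6, and the PACAP38 pool and the control pool were hybridized together on 2 arrays with 2 colours, once with PACAP38 in Cy5 and once in Cy3. These arrays repeat the same pools, which makes a time point 1 replicate; the folds of both are shown instead of an error, and no difference between the conditions was tested within a time point. The spot p-values given further on are the scanner software's for single spots, and they compare the hybridized pools, not the conditions. The 12 arrays lay on 3 slides, the first with 5 and 10 min, the second with 15 and 30 min and the third with 60 and 120 min, so slide and early against late time cannot be told apart. All values belong to a single line of tumour cells, and its RNA was pooled before labelling.

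In the embryo, signals from the dorsal aorta switch on a small network of factors in migrating neural crest cells. The paired-like homeodomain factor Phox2a is among the early ones, followed by the basic helix-loop-helix factor Hand2 and the zinc finger factors Gata2 and Gata3. Together they turn on and maintain Th and Dbh, the enzymes of noradrenaline synthesis. Insm1, a zinc finger factor of neuroendocrine cells, and Isl1, a LIM homeodomain factor, act in chromaffin cell and sympathetic neuron differentiation. PACAP38 acts through receptors that raise cyclic AMP, and it is known in PC12 cells for eliciting neurites.

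The arrays read each gene through a probe of 60 bases, and the Hand2 probes are shown because their signals are compared further on. Both come from the minus strand of chromosome 16 on build rn4. The first lies at chr16:36325824-36325883, and the second spans 1456 bases of the genome, chr16:36324395-36325850, so that its letters come from more than 1 exon. Capitals mark the 27 bases that both share.
Hand2 A_44_P214836: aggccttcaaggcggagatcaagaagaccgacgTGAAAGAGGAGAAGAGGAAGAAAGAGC
Hand2 A_44_P214837: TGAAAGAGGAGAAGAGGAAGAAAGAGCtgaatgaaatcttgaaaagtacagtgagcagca
The probes of Hand1 at chr10:43423603-43423662, of Isl1 at chr2:48052237-48052296 and of Insm1 at chr3:134846005-134846064 are given because the first and the second are among the genes measured on every array while the third is the gene that could not be measured.
Hand1 A_43_P12083: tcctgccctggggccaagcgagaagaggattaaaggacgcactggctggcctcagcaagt
Isl1 A_44_P509917: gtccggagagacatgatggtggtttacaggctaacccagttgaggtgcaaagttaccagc
Insm1 A_44_P238964: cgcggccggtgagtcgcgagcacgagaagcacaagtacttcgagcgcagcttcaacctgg
The Phox2a probe A_44_P1005583 lies at chr1:159277652-159277711 and the Gata2 probe A_44_P403866 at chr4:122287400-122287459. The Gata3 probes lie 21.2 kb apart on chromosome 17, A_44_P383310 at chr17:79991712-79991771 and A_44_P136018 at chr17:80012949-80013008. By accession, 7 of the 9 probes carry the same symbol in RefSeq; the accessions of A_44_P136018 and of the Insm1 probe were not matched there.

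Phox2a, Hand1, Hand2, Gata2 and Isl1 were expressed in PC12 cells, with at least 1 probe well above background in both channels of all 12 arrays. Gata3 was near the limit of detection, and Insm1 stayed under that limit in both RNAs of every array. The processed signal (background-subtracted and dye-normalized fluorescence) of Phox2a in the control channel was 23155 at its lowest, 28245 at the median and 50882 at its highest over the 12 arrays. For Gata2 these values were 1301, 1589 and 2400, for Isl1 214, 381 and 611, for Hand1 291, 370 and 439, and for the brighter Hand2 probe 201, 395 and 731. Signals of different probes do not rank genes, because probes differ in how well they hybridize. For Insm1 the control signal lay between 4.12 and 23.2 and the PACAP38 signal between 4.76 and 16.7, so that no ratio is given.

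The cells carried the marks of their chromaffin origin. All 6 chromaffin markers (Th, Ddc, Dbh, Chga, Chgb and Slc18a1) were well above background in the control RNA of all 12 arrays. No probe was named Pnmt, the enzyme of adrenaline synthesis, which was not analysed here. None of the 5 adrenal cortex markers or the 3 endothelial markers was well above background in any control channel, and neither were 4 of the 5 Schwann cell and glia markers, Sox10 and Erbb3 among them. Of markers of other cells, Col1a1 and Cd68 were well above background in the control RNA of all 12 arrays, Col1a2 on 11, Dcn on 5, and Lum, Ptprc and Cd3e on none. Cd68, a lysosomal protein of macrophages and other cells, had folds of 1.97 and 1.91 after 120 min; its part in the results was not tested. The direction of the ratios was checked with Fos, an immediate early gene, which was 18.2 and 15.5 times higher with PACAP38 on the 2 arrays after 10 min, and 3.32 times higher over both with normexp background correction and loess.

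None of the 9 probes was counted as changed at any time. RNA came from whole cultures, so fewer expressing cells and less RNA per cell cannot be told apart. A probe was counted when both arrays gave at least 2, or both at most 0.5, each with a spot p-value below 0.01. Over all 41012 probes this rule counted 0% after 5 min, 0.0658% after 10 min, 0.117% after 15 min, 0.351% after 30 min, 1.25% after 60 min and 3.47% after 120 min. Beside these shares, a count of 0 among 9 probes is close to the background and is no result about these factors. In the 5 genes measured on every array, the 30 folds (geometric means of both arrays) lay between 0.743 and 1.34, and 27 of them lay between 0.8 and 1.25. Both arrays fell on the same side of 1 for 20 of these 30 folds. The largest log2 change of a gene over the 6 times had a median of 0.35 in absolute size among the 5, beside 0.33 among the 13939 probes measured in both RNAs on every array, and 37.4% of those probes had a larger change than any of the 5.

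**Figure D1:**
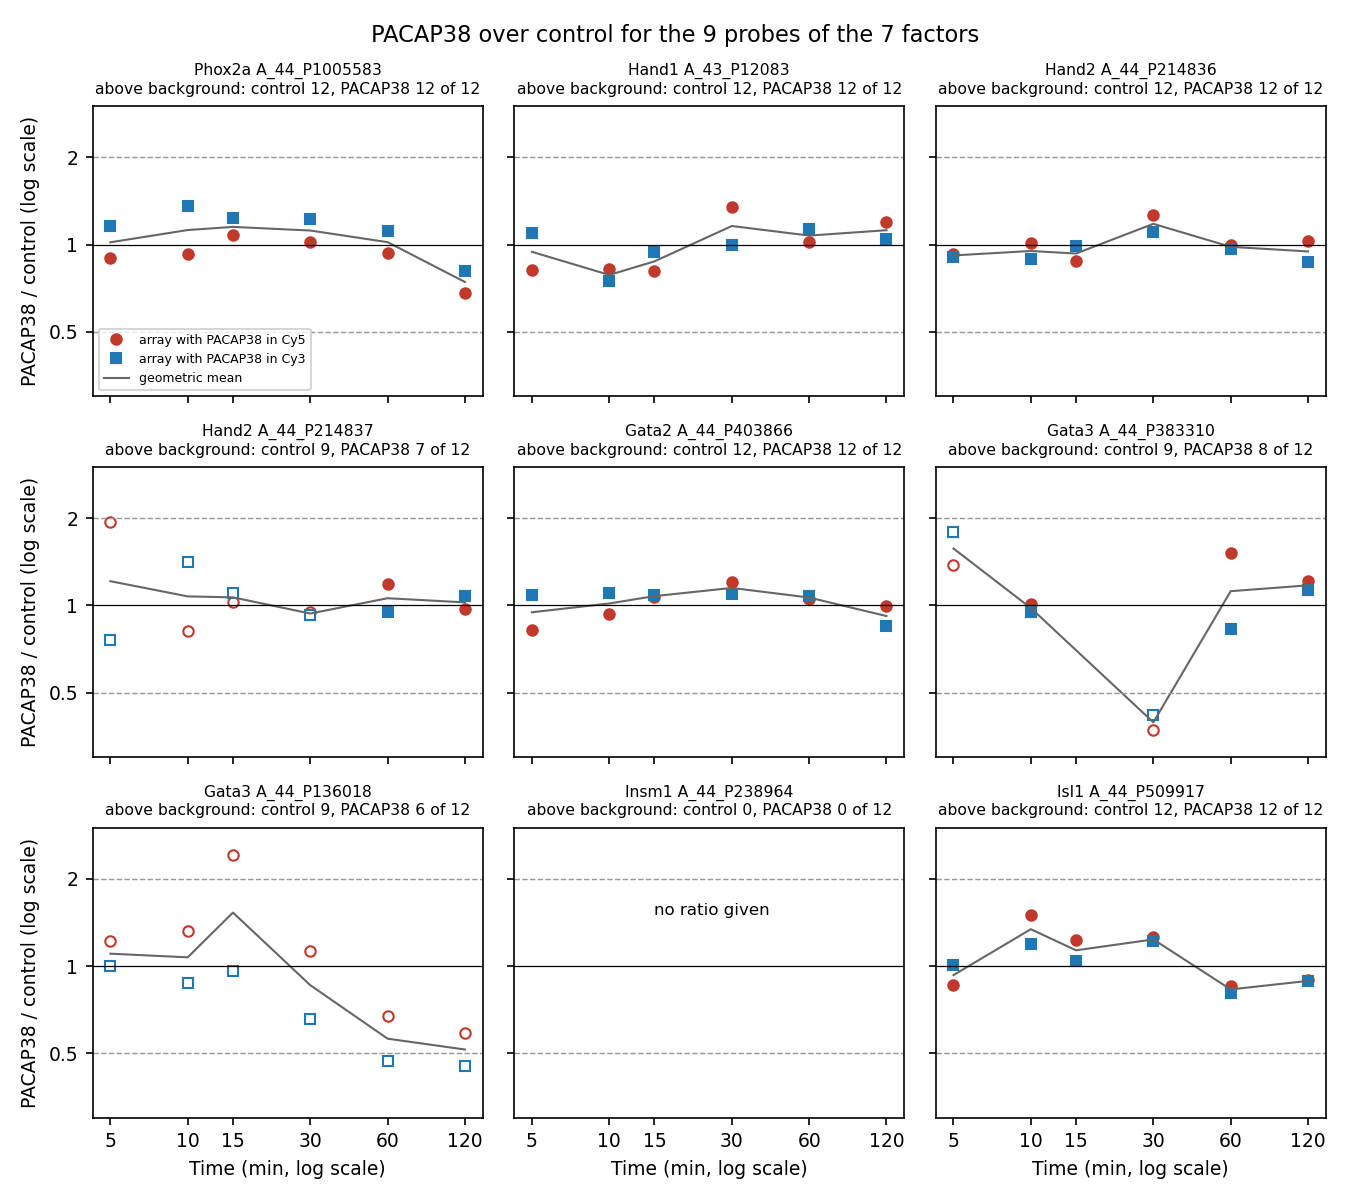
PACAP38 over control (log axis) against time in minutes (log axis) for the 9 probes, with the Insm1 panel left empty because no ratio is given. Circles are the arrays with PACAP38 in Cy5, squares those with PACAP38 in Cy3, hollow where an RNA was not well above background on both arrays, the line is their geometric mean, and dashed lines mark folds of 0.5 and 2. The probes of Phox2a, Hand1, Gata2 and Isl1 and the brighter Hand2 probe stayed between the dashed lines on every array; points beyond a dashed line belong to the dim Gata3 probes.

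Phox2a, the homeodomain factor that binds the promoters of Th and Dbh, had array folds from 0.898 to 1.36 up to 60 min. It had a lower value after 120 min. After 5 min the array with PACAP38 in Cy5 gave 0.898 and the one with PACAP38 in Cy3 gave 1.16. At 10 min the folds were 0.928 and 1.36, after 15 min 1.08 and 1.23, after 30 min 1.02 and 1.23, and after 60 min 0.936 and 1.11. With normexp and median centring the fold over both arrays was 1.25 after 10 min and 1.34 after 15 min, in place of 1.12 and 1.15. At 120 min the processed signals were 34638 with PACAP38 against 50882 in the control on one array and 34860 against 42967 on the other, which gave folds of 0.681 and 0.811. Both arrays were below 1 there, the array with PACAP38 in Cy3 was the higher of the pair at all 6 times, and the spot p-value was 0.00832 on the first and 0.143 on the second. The PACAP38 signals after 60 min, 34774 and 35662, differed little from those after 120 min, whereas the control signals of 120 min were above the 37151 and 32101 of 60 min. After scaling between arrays, the level of the 120 min control pool (14.94 on the log2 scale) lay within the other control pools, and that of the PACAP38 pool (14.51) lay below all 6 of them.

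Isl1, a LIM homeodomain factor, lay above 1 at the middle times and below 1 at the late ones. Its folds were 0.859 and 1.01 after 5 min, 1.51 and 1.19 after 10 min, 1.23 and 1.04 after 15 min and 1.26 and 1.22 after 30 min. At 60 min they were 0.856 and 0.808, and after 120 min 0.894 and 0.886. Thus both arrays were above 1 at 10, 15 and 30 min and below 1 at 60 and 120 min. The 2 arrays of 10 min had signals of 399 against 265 and 390 against 326, and the spot p-values were 0.00623 and 0.226. At 30 min the signals were 419 against 334 and 476 against 391, and after 60 min 332 against 388 and 382 against 473. With normexp background correction and loess in place of the processed signals, the fold of 10 min was 1.14 in place of 1.34 and that of 60 min 0.890 in place of 0.832.

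Hand1 and Hand2 are sister basic helix-loop-helix factors of heart and sympathetic development. Hand1 had folds of 0.815 and 1.09 after 5 min, 0.826 and 0.748 after 10 min, 0.811 and 0.945 after 15 min, 1.35 and 0.995 after 30 min, 1.02 and 1.13 after 60 min and 1.20 and 1.05 after 120 min, below 1 on both arrays of 10 and 15 min and above 1 on both arrays of 60 and 120 min. With normexp and median centring the Hand1 fold was 1.002 after 15 min and 0.944 after 120 min, on the other side of 1. The signals behind the 10 min value were 323 against 391 and 328 against 439. For the brighter Hand2 probe the folds of both arrays lay between 0.874 and 1.26 at all 6 times. The highest pair was after 30 min, with 1.26 and 1.1, from signals of 512 against 405 and 424 against 385. The second Hand2 probe, with control signals from 10.8 to 58.6, was well above background in both RNAs on both arrays at 2 times, 60 and 120 min, where its folds were 1.18 and 0.948, and 0.975 and 1.08. After 60 and 120 min the folds of both Hand2 probes thus lay between 0.874 and 1.18.

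Gata2, a zinc finger factor of the noradrenergic network, had array folds between 0.823 and 1.21. Its folds were 0.823 and 1.09 after 5 min, 0.932 and 1.11 after 10 min, 1.07 and 1.08 after 15 min, 1.21 and 1.09 after 30 min, 1.05 and 1.08 after 60 min and 0.998 and 0.847 after 120 min. Between 15 and 60 min both arrays were above 1, by at most 1.21.

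Gata3, which maintains the noradrenergic programme in sympathetic cells, was read by a dim pair of probes. With A_44_P383310 the folds were 1.38 and 1.79 after 5 min, with the control well above background on 1 of the 2 arrays, and 1.01 and 0.946 after 10 min, while neither RNA was well above background after 15 min. The signals of this probe after 30 min were 12.1 with PACAP38 against 32.7 in the control on one array and 20.5 against 48.8 on the other, with folds of 0.371 and 0.421 and spot p-values of 0.0483 and 0.00637. The PACAP38 RNA was well above background on neither of these arrays, which leaves a bound: Gata3 was at least 1.52-fold lower by this probe after 30 min. For such a bound, the control was set against either the dim signal itself or, if higher, the weakest signal in that channel that still counted as well above background. At 60 and 120 min the same probe had folds of 1.51 and 0.830 and of 1.22 and 1.13, with both RNAs well above background. With A_44_P136018 the folds were 1.22 and 0.998 after 5 min, 1.32 and 0.873 after 10 min, 2.43 and 0.966 after 15 min, where each RNA was well above background on 1 of the 2 arrays, 1.13 and 0.656 after 30 min, 0.671 and 0.471 after 60 min and 0.588 and 0.453 after 120 min. At 120 min the PACAP38 signals were 27.0 and 20.2 against 45.8 and 44.6 in the control, and PACAP38 was well above background on neither array, which gives a value at least 1.32-fold lower. One probe was thus lowest after 30 min and the other at 60 and 120 min, and they were on different sides of 1 after 120 min. With normexp background correction and its offset of 50, all folds of both probes lay between 0.925 and 1.06, since these signals are smaller than or close to the offset.

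The control pools were also compared with each other, because each time point had a control pool of its own. Levels were put on a common log2 scale (processed signals after Aquantile normalization between arrays, the mean of both dyes). The range over the 6 control pools was then taken. It holds differences of time, slide and array together, and nothing says that the pools came from separate cultures. Hand2 stood out for the size of this range. Its control signals were 222 and 201 on the arrays of 5 min, 363 and 355 after 10 min, 547 and 366 after 15 min, 405 and 385 after 30 min, 688 and 683 after 60 min and 547 and 731 after 120 min. The pair of 5 min was the lowest, and the lowest of the other control signals was 355. On the scaled values the range was 1.36 log2 units, or 2.56-fold (SD 0.47, n = 6), and 2.42% of the 14481 probes well above background in every control channel had a range as large. The Hand2 ratio stayed near 1 while both levels differed between slides. From the first slide to the third, the mean level was 1.68-fold higher in the control and 1.74-fold higher with PACAP38. Both RNAs of a time lay on the same spots of the same arrays, so the PACAP38 levels are not a separate observation. From 15 to 30 min the control level went from 9.03 to 8.80 and the PACAP38 level from 8.93 to 9.04.

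The second Hand2 probe shares 27 of its 60 bases with the first. It also had its lowest control level after 5 min and its highest after 60 min, over a range of 1.30 log2 units. Its control RNA of 5 min was well above background on 1 of the 2 arrays, with signals of 10.8 and 29.3. The low end of this range, and so its size, is not settled. With normexp and loess before scaling, the range of this second probe was 0.11, with an offset larger than these signals of 5 min. Slide and time coincide, and the part of the slide was not tested. By the brighter probe, the control level of 10 min was 0.80 log2 units above that of 5 min, both on the first slide. Its log2 difference was -0.23 from 15 to 30 min on the second slide and -0.41 from 60 to 120 min on the third. The second probe had log2 differences of 0.58, 0.27 and -0.61 at these steps, opposite in sign to the brighter probe on the second slide. Its differences of 0.58 and 0.27 include the dim control signals of 5, 10 and 15 min, so their size and sign are not settled. Without 5 and 10 min the range of the brighter probe was 0.42, no larger than that of Hand1 over the same pools. With normexp and loess before scaling it was 0.88.

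For the other genes the range over the control pools was 0.63 log2 units in Hand1, 0.55 in Isl1, 0.34 in Gata2 and 0.22 in Phox2a, against a median of 0.37 over the 14481 probes. With normexp and loess the range of Isl1 was 0.22 and that of Gata2 0.17, and without 5 and 10 min that of Gata2 was 0.057. Phox2a thus varied less between untreated pools than most probes, and 83.9% of the probes had a range at least as large. These probes were not matched to Phox2a by signal, so whether its range was small for so bright a probe was not tested. Setting each PACAP38 pool against the range of the 6 control pools, 1 of the 5 genes lay outside after 5 min (Hand2, below), none after 10 min, 1 after 15 min (Phox2a, above), 2 after 30 min (Phox2a and Isl1, above), 2 after 60 min (Phox2a above and Isl1 below) and 2 after 120 min (Phox2a and Gata2, below). Of the 13939 probes measured on every array, 31.0, 24.6, 19.7, 22.2, 48.9 and 64.8% lay outside at these times, so that such a position was common. Hand1 stayed inside the range at all 6 times. These counts changed with the scaling, as given in the closing section.

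**Figure D2:**
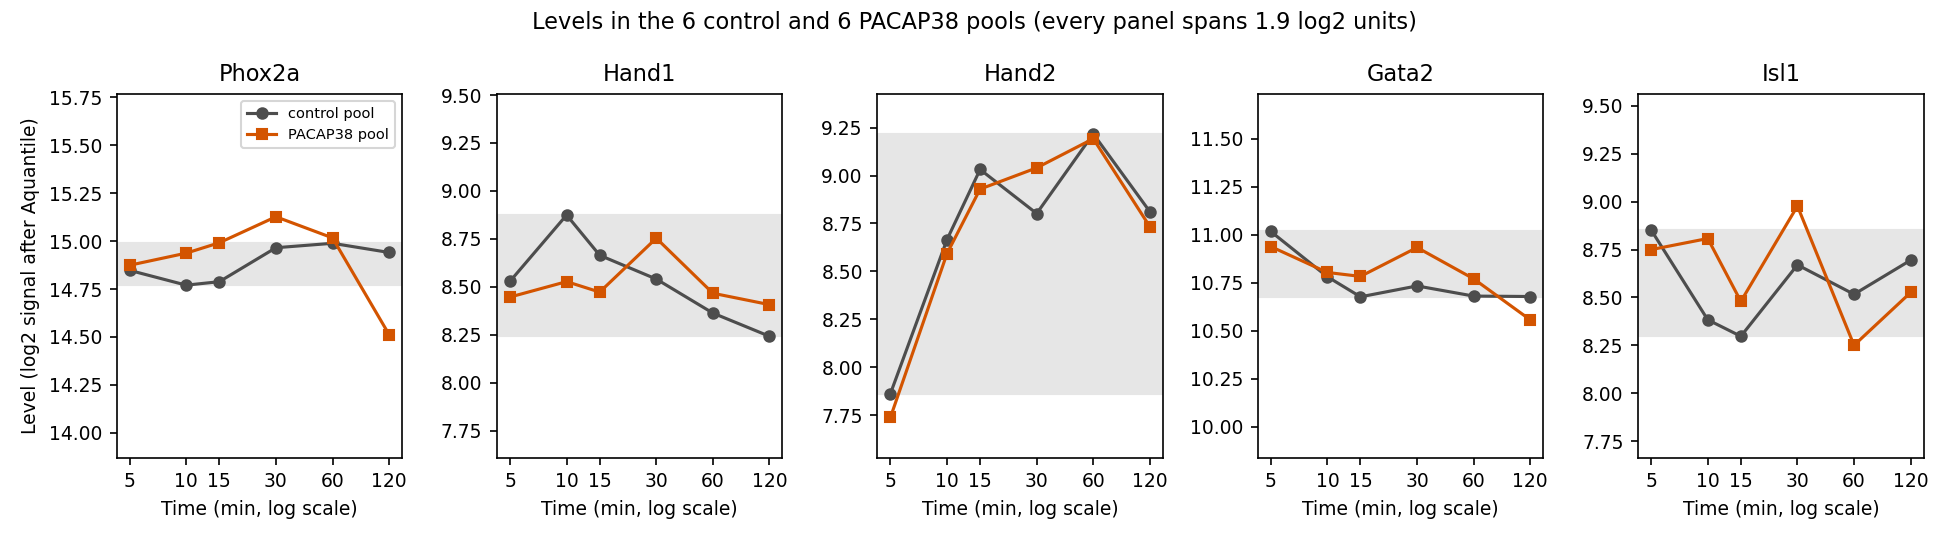
Level (log2 signal after Aquantile normalization, mean of both dyes) of each control pool and PACAP38 pool against time in minutes (log axis) for the 5 genes measured on every array. The grey band is the range of the 6 control pools, and every panel spans the same number of log2 units. Hand2 differed most over the 6 control pools, with PACAP38 close to its control at each time, and the Phox2a PACAP38 pool of 120 min lay below the band.

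A slope of the dye-averaged log2 ratio on log2 minutes was fitted with limma across the 18720 probes with the same RNA well above background on the array pair of some time point. It gave 1.30% of probes an adjusted p below 0.05 (Benjamini-Hochberg over all probes), and none of the 8 member probes tested was among them. The slope per doubling of time was -0.09 ± 0.05 (SE, n = 6 time points) for Phox2a, with a limma adjusted p of 0.244. It was 0.09 ± 0.04 for Hand1, with an adjusted p of 0.198 in the same limma fit. For Isl1 it was -0.07 ± 0.06 with a limma adjusted p of 0.464, and for Gata2 and the brighter Hand2 probe the limma adjusted p was 0.988 and 0.737. For Gata3, A_44_P383310 had -0.07 ± 0.16 with a limma adjusted p of 0.807. A_44_P136018 had -0.30 ± 0.08 with a limma adjusted p of 0.0867, but at no time were both RNAs well above background on both arrays for this probe, and with normexp and loess its slope was -0.025, so that its size is not settled. With time in minutes in place of log2 minutes, Phox2a passed at -0.29 ± 0.07 log2 units per hour (limma adjusted p = 0.0278) and Gata3 by A_44_P136018 at -0.71 ± 0.18 (limma adjusted p = 0.0294), in a fit that called 30.0% of all probes. The Phox2a slope rested on its last time, being -0.0025 per doubling without 120 min.

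**Figure D3:**
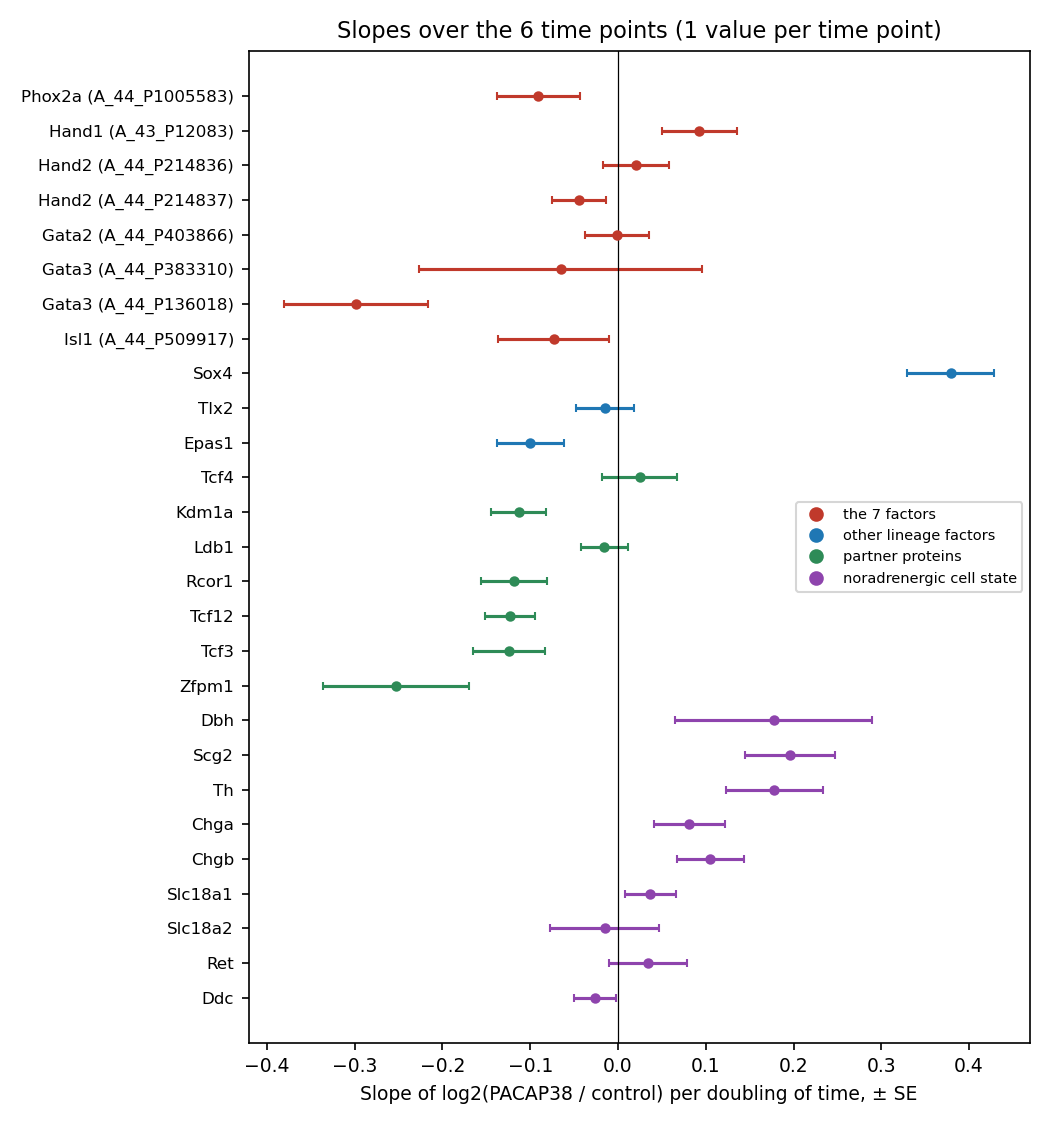
Slope of the log2 ratio of PACAP38 to control per doubling of time, with its standard error from limma, for the 8 member probes tested and for genes measured on every array from 3 lists (other lineage factors, partner proteins, noradrenergic cell state). Each slope rests on 6 values, 1 per time point. Member slopes lay between -0.30, from a dim Gata3 probe, and 0.09, and Sox4 had the steepest rise among the genes drawn.

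Other factors of the same lineage were read from a list of 15 genes, of which 13 had a probe and 4 were measured on every array. Sox4, an HMG-box factor of sympathetic progenitors, rose over time, with folds of 2.35 and 2.56 after 60 min, 3.48 and 3.19 after 120 min and a slope of 0.38 ± 0.05 (limma adjusted p = 0.038). It was the 1 gene of the list that passed the slope test and the 1 that was counted at 60 and 120 min. Without 1 time point, the limma adjusted p of Sox4 was between 0.047 and 0.179, below 0.05 only without 5 min. It was 0.0813 with normexp and median centring, 0.0722 with PACAP38 in Cy3 alone, 0.0975 over all probes without a filter and 0.891 with the slide as a block. With median centring Sox4 was also no longer counted at 60 or 120 min, since the array with PACAP38 in Cy3 gave 1.71 and 1.95. Epas1, a hypoxia-inducible factor abundant in chromaffin cells, had folds of 0.670 and 0.684 after 120 min by its brighter probe, whereas its second probe, also measured on every array, had 1.13 and 0.916. Tlx2 had 0.892 and 0.803. Of the 13 genes, 8 were well above background in no control channel, among them Sox11, Tfap2a, Insm2 and Rest.

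Proteins that bind these factors came from a list of 15 genes, with 14 on the array and 7 measured on every array. At 120 min 6 of the 7 were below 1 on both arrays, with a median log2 fold of -0.40, beside 42.4% of all measured probes below 1 on both arrays and a median of -0.04 over those probes. Zfpm1, the FOG cofactor that binds Gata factors, was counted as lower after 120 min, with folds of 0.428 and 0.392. It was no longer counted with normexp and loess, where its folds were 0.517 and 0.486, or with median centring, at 0.543 and 0.348. A second Zfpm1 probe had 0.50 and 0.49 there, or 0.811 for both arrays with normexp and loess. Tcf3 and Tcf12, the E proteins that pair with Hand proteins, had folds of 0.747 and 0.604 and of 0.705 and 0.783 by their brightest probes; another Tcf12 probe had 0.740 and 1.07. Tcf4, the third E protein, had 1.20 and 1.03. Kdm1a had 0.848 and 0.891 and Rcor1 0.741 and 0.777, both parts of a complex that binds Insm1. Ldb1, the cofactor of LIM homeodomain proteins such as Isl1, had 0.933 and 0.720. None of the 7 passed the slope test.

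Genes that these factors are known to control, or that mark the noradrenergic state, came from a list of 12, with 11 on the array and 9 measured on every array. At 120 min 6 of the 9 were above 1 on both arrays and 1 below, beside 33.7% of all measured probes above 1 on both arrays. Dbh had folds of 3.03 and 1.83, Th 2.15 and 1.52, and Scg2, a granin of secretory vesicles, was counted as higher with 2.05 and 2.03. Over both arrays the Dbh fold of 2.36 became 1.82 with normexp and loess and 1.58 with median centring. The Th fold of 1.81 became 1.85 and 1.66. Scg2 was not counted with normexp and loess, at 1.94 and 2.09, or with median centring, at 2.34 and 1.33. Npy was counted as higher as well, but its control was well above background on 1 of 12 arrays, and its fold of 7.98 became 1.43 with normexp and loess, so that its size is not settled. Chga and Chgb had 1.61 and 1.12 and 1.31 and 1.20. Ddc, which makes dopamine, had 0.966 and 0.841, and Slc18a1, the vesicular amine transporter of chromaffin cells, had 1.09 and 1.23. Ret had 1.02 and 0.936 by its brightest probe and 1.21 and 1.25 by another of like brightness. None of the 11 genes tested passed the slope test. In the same pools Phox2a had 0.681 and 0.811, Hand2 1.03 and 0.874 and Gata2 0.998 and 0.847.

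**Figure D4:**
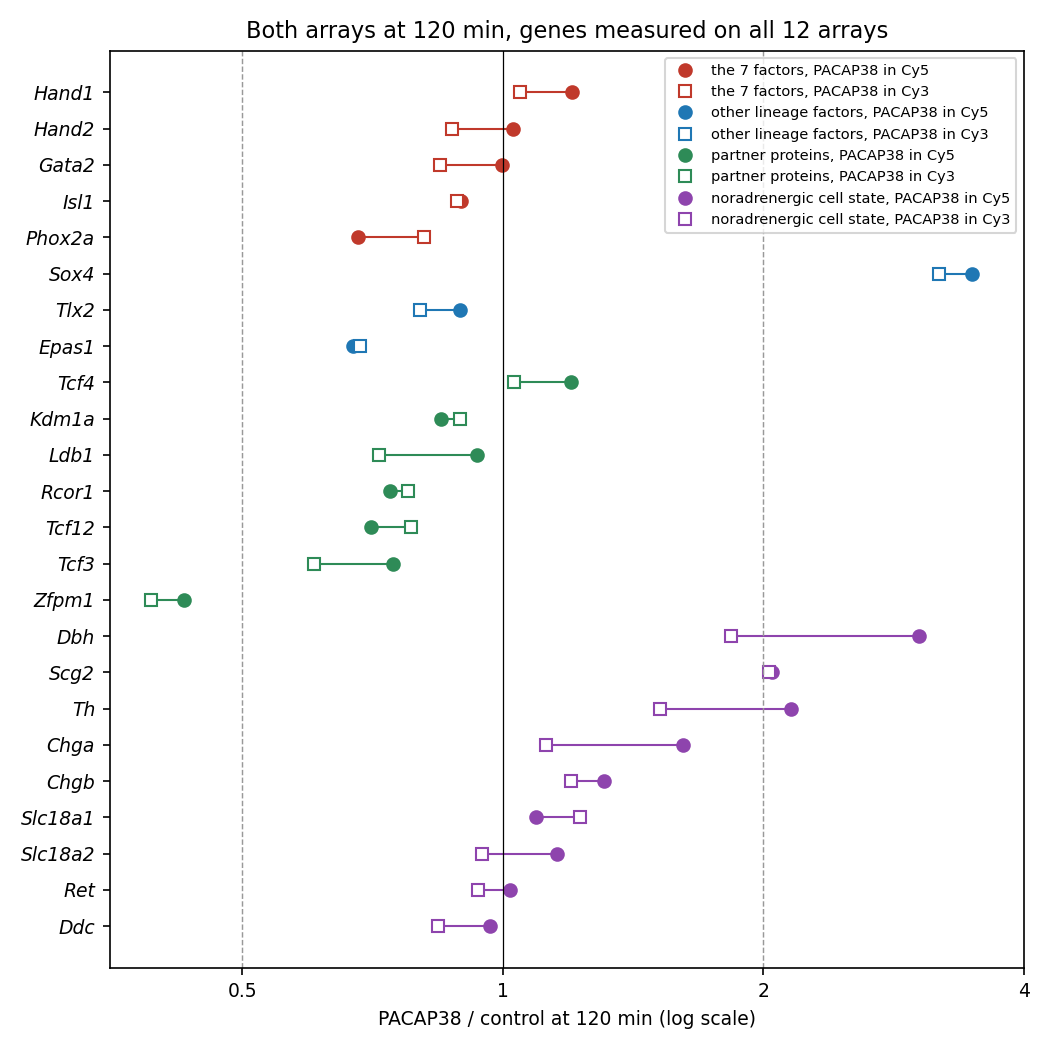
PACAP38 over control at 120 min (log axis) for the member genes and for genes of 3 lists that were well above background in both RNAs of all 12 arrays. Filled circles are the array with PACAP38 in Cy5, open squares the array with PACAP38 in Cy3, and dashed lines mark folds of 0.5 and 2. The 5 member genes lay between 0.681 and 1.20, Sox4 above 3 and Zfpm1 below 0.5 on both arrays.

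Cyclic AMP acts on many genes through the factor CREB, which binds the palindrome TGACGTCA and, more weakly, its one side, TGACG. RefSeq promoter windows (build GRCr8, 250 bases before to 50 after the start) were at hand for 6 of the 7 genes, all but Insm1. TGACG on either strand was found in 1 of the 6, that of Hand2, 37 bases before the start, and in 21.2% of 33469 windows. The palindrome was found in none of the 6 and in 1.83% of all windows. Of 7 windows of other genes searched, those of Th and Scg2 held it, in Th from 69 bases before the start, and those of Dbh, Npy, Zfpm1 and the immediate early genes Egr1 and Nr4a1 did not. TGACG was found in the windows of Th, Scg2, Dbh, Egr1 and Nr4a1 and not in those of Npy and Zfpm1. The 100 bases before the start are shown for Hand2 (chr16:37931489-37931588, minus strand) and Th (chr1:207508219-207508318, minus strand), with these letters in capitals, to set the side of the palindrome beside the whole.
Hand2 promoter: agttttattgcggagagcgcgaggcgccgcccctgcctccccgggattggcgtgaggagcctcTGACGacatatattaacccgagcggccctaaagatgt
Th promoter: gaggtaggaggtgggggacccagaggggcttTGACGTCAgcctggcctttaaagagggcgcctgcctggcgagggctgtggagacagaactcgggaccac
Hand2, whose window holds TGACG, had ratios near 1 at every time. A match of letters is not a bound site, and its absence from these windows says nothing of sites elsewhere.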

How the data were processed

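The authors scanned 12 rat 4x44K arrays with Agilent's Feature Extraction (version 12.0.3.1 in the file headers, 11.0.1.1 in the submitters' processing notes). As deposited, intensities of Cy3 and Cy5 are background-subtracted and dye-normalized; mean and background intensities, a p-value of each spot's log ratio and flags for controls, outliers and signal well above background are deposited beside them. The deposited table of log10 Cy5 over Cy3 equals the ratio of the processed intensities. By these flags, 38.4 to 49.6% of the control signals of an array stood well above background, and the number of arrays limits the precision.

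Here, ratios were turned by dye, outlier spots were left out, spots of a probe were averaged, and the slope was fitted with limma 3.58.1 in R 4.3.3 and tested on simulated data; levels used Aquantile. Other steps ran in Python 3.11.15. Nothing says that the pools came from separate cultures, so p-values measure the spread between these samples. Of several probes, the brightest by mean signal is the gene's value. The text names all members and, from fixed lists, genes with a counted probe and up to 4 others per list by signal (further ones were named after their values were seen). For likeness between genes, a log2 fold of 0.585 was required; no member measured on every array reached it. Members and lists were chosen with earlier results of these data known. Some genes of the lists are included in the counts but not reported here by name. Alternatives were normexp (offset 50) with loess or median centring, the deposited table, 1 array alone, other count limits and filters, other scalings, a slide block, time in minutes and each time point left out.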

Additional observations from a re-analysis of the deposited data

Results flagged for a closer look

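In 5 genes measured on every array, both arrays were on one side of 1 at one time and on the other side at another, and the difference between the times was not tested. The log2 difference between the highest and the lowest such time was 0.69 in Isl1 (10 against 60 min), 0.63 in Phox2a (15 against 120 min), 0.51 in Hand1 (120 against 10 min), 0.36 in Hand2 (30 against 5 min) and 0.32 in Gata2 (30 against 120 min). The times were picked for this difference.

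Among the 6 control pools, that of 5 min stood apart for Gata2, at a level of 11.02 against 10.68 to 10.78 in the others; its gap to the next pool was 0.693 of the whole range, above Dixon's limit of 0.625. Chance marks about 1 in 20 such groups, and 5 genes were looked at.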

How the results depend on the processing

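No member was counted under normexp with loess or median centring, with the deposited table, with outlier spots kept, at a fold of 1.5, or with both RNAs well above background. With 1 array alone, 0 to 1 member probe was counted after 15 and 30 min (Gata3, by different probes), and 1 after 30 min without a p limit. Of the genes of the 3 lists, 1 was counted after 60 min and 4 after 120 min; median centring made both 0 and loess left 1 after 120 min (Sox4), while 1 array alone gave 1 after 5 min and 1 to 2 after 60 min (these alternatives for the lists were chosen after seeing the data).

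The slope test called 244 probes, 107 with normexp and loess, 1 with median centring, 0 of all 41012 without a filter (6563 at an unadjusted p below 0.05), 976 of 13939 with both RNAs well above background throughout, 5616 in minutes, 0 with slide as a block (852 unadjusted), 77 and 128 with PACAP38 in Cy5 or Cy3 alone, and 0 to 415 without 1 time point: 415 without 5 min, 12 without 30, 1 without 60 and 0 without 10, 15 or 120 min. No member passed under these except Phox2a and Gata3 in minutes.

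Median centring moved the median log2 ratio of the 13939 probes by 0.16 after 15 min and -0.14 after 120 min. Member slopes near 0 changed sign. Gata2 went from -0.0009 to 0.061 with Cy5 alone and -0.038 to 0.056 without 1 time point. Gata3 (A_44_P383310) had 0.128 in minutes, 0.011 with Cy5 alone and -0.245 to 0.127 without 1 time point. Hand2 had -0.047 with median centring and -0.00042 in minutes; its dim probe had 0.00598 with loess, 0.0099 with median centring and 0.021 with Cy3 alone. Isl1 had 0.249 with slide as a block.

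Outside the control range, normexp gave 2 genes after 10 min, 0 after 15 min and 3 after 30 min, and scaling by the 75th percentile 1 after 60 min. Of 84 member folds recomputed with normexp or as a mean over probes, 33 moved by more than the SD of both arrays, 27 of these under normexp; the deposited table and kept outlier spots changed no fold, and 1 array alone cannot move one past this SD. The control ranges of Hand2 and Gata2 moved by more than their SD with normexp and without 5 and 10 min, and that of Isl1 with normexp. The Gata3 slope of A_44_P136018 was -0.025 with normexp.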

Other observations

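Tal1, a helix-loop-helix protein that works with Gata factors and E proteins, was named after its values were seen. The arrays of 60 and 120 min did not read its control RNA well above background. Its folds were 2.77 and 4.64 after 60 min, where it was at least 1.77-fold higher with PACAP38, and 3.14 and 3.76 after 120 min, where the bound was at least 1.28-fold. It was not counted at either time. With normexp and loess these folds were 1.05 and 1.09, and the other Tal1 probes, whose control RNA was well above background on no array, had 0.960 and 1.13 and 0.829 and 0.824 (means of both arrays after 60 and 120 min).

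The third Zfpm1 probe was well above background in no control channel, and the 2 other Sox4 probes were dim, well above background in the control RNA of 4 and 5 of 12 arrays.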
